A study of Mus musculus with 18 samples.

Results

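Il33 encodes interleukin 33, an alarmin cytokine, and was measured here by 1 probe, ILMN_1259747, among the 45281 probes and 19053 named genes of Illumina bead arrays of mouse hippocampus. The probe was taken by its platform gene symbol, and it lay above background in 18 of 18 arrays. Il33 was selected on its intensities in these same arrays, so its own values are given as a description, with errors and without a test.

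The arrays carried hippocampal RNA of C57Bl6/J mice in 4 groups of age and feeding. Cannabis mice received an extract at 20 mg/kg daily, fed by hand in condensed milk and olive oil, for 14 days between postnatal days 14 and 28, and vehicle mice received the milk and oil alone. The P28 vehicle group (4 arrays) and the P28 cannabis group (4 arrays) were killed at postnatal day 28, 70 to 80 min after feeding began on the last day. The adult vehicle group (5 arrays) and the adult cannabis group (5 arrays), labelled P56, had been fed over the same days. The adults had also gone through behavioural tests and a phencyclidine challenge with a washout of 2 weeks, so age and this history cannot be told apart. No label states that different arrays came from different mice, and the p-values therefore cover the scatter among these arrays only, part of which may be technical.

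IL-33 belongs to the IL-1 family of cytokines. It is held in the nucleus bound to chromatin, and is released from damaged or stressed cells, where it binds a receptor made of ST2 (the product of Il1rl1) and the shared accessory chain (the product of Il1rap). The receptor signals through MyD88, IRAK kinases and TRAF6 to NF-kB. In the mouse brain and spinal cord astrocytes and oligodendrocytes are known sources, hippocampal neurons have been reported to make it too, and microglia respond to it by clearing synapses and extracellular matrix.

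Il33 lies on the plus strand of mouse chromosome 19, and the RefSeq promoter table (assembly GRCm38.p6) gives it 2 start sites, 20677 bases apart. The 250 bases before each are shown because the single probe reports on the gene as a whole and cannot tell transcripts from the 2 starts apart. The place of the probe within the transcript was not analysed here. The first window is chr19:29924863-29925112 and the second is chr19:29945540-29945789, both on the plus strand, and capitals mark the motif TATAAA.
Il33 start 1: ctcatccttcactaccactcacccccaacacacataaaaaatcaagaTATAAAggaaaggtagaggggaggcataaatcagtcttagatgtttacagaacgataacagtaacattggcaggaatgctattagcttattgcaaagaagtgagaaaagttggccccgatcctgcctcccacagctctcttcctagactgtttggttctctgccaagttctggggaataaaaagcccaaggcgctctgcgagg
Il33 start 2: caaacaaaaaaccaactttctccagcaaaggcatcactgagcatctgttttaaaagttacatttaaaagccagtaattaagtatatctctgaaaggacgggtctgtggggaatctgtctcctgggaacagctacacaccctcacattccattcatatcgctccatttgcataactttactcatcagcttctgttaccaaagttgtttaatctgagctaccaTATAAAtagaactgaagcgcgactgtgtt

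The motif ended 197 bases before the first start site and 23 bases before the second. Searched on both strands, TATAAA was held by 12.4% of 32851 windows of this length in the table. The AP-1 motif TGANTCA was held by 6.75% of windows and an interferon response motif (GAAA, any 2 bases and GAAA again) by 2.98%, and neither stood in the Il33 windows. These matches describe letters only.

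The value table was on a log2 scale, in which 1 unit is a 2-fold difference in intensity, with the same distribution in every array. Values were not background-subtracted, so differences are compressed, the more so the dimmer the probe. The background level was 6.97, and 18574 probes of 10572 named genes exceeded it in 4 arrays or more. Differences between groups came from a linear model over the 18 arrays (limma), with the moderated SE as the error and Benjamini-Hochberg adjustment over the 18574 probes at 0.05. Arrays of a group correlated at 0.981 to 0.995, and the number of arrays limits the precision. Among markers of pyramidal and dentate granule neurons, 8 of 12 listed genes were above background, with Prox1, a transcription factor of dentate granule cells, at 9.12 in P28 vehicle mice and 8.76 in adult vehicle mice. The list was split, with 4 of the 8 higher and 4 lower in adult vehicle mice and a median difference of 0.04.

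Adult cannabis arrays 2 and 4 stood apart from the other adults, and results that rest on them are given with and without them. Their place was read from 375 probes other than Il33 that differed between P28 and adult vehicle mice in a fit of those 2 groups alone, 106 higher and 269 lower in adults. On a scale where the P28 vehicle mean is 0 and the adult vehicle mean is 1, adult cannabis arrays 1, 3 and 5 lay at 0.93, 0.93 and 1.12. Arrays 2 and 4 lay at 0.34 and 0.40, and 66.7% and 56.8% of the probes were nearer the P28 vehicle mean than the adult vehicle mean, against 8.53% to 16.8% in the other adult cannabis arrays. The P28 cannabis arrays lay between -0.02 and 0.29 on this scale. Why these 2 arrays lie there was not tested, and leaving them out was chosen after their values were seen.

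Il33 was about 2-fold brighter in adult vehicle mice than in vehicle mice at P28. The P28 vehicle arrays read 7.76, 7.49, 7.65 and 7.78 log2 units. The adult vehicle arrays read 8.42, 8.90, 8.76, 8.92 and 8.96. Every adult vehicle array was above every P28 vehicle array, with a gap of 0.64 between the highest young and the lowest adult array.

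The P28 cannabis arrays read 7.51, 7.59, 7.43 and 7.59, within or just below the P28 vehicle range. The adult cannabis arrays read 8.78, 7.62, 8.36, 7.41 and 8.61. Arrays 1, 3 and 5 of this group lay near or inside the adult vehicle range, while array 2 lay inside the P28 vehicle range and array 4 below all 8 P28 arrays. In bulk tissue, fewer cells of a type and less RNA per cell cannot be told apart.

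**Figure D1:**
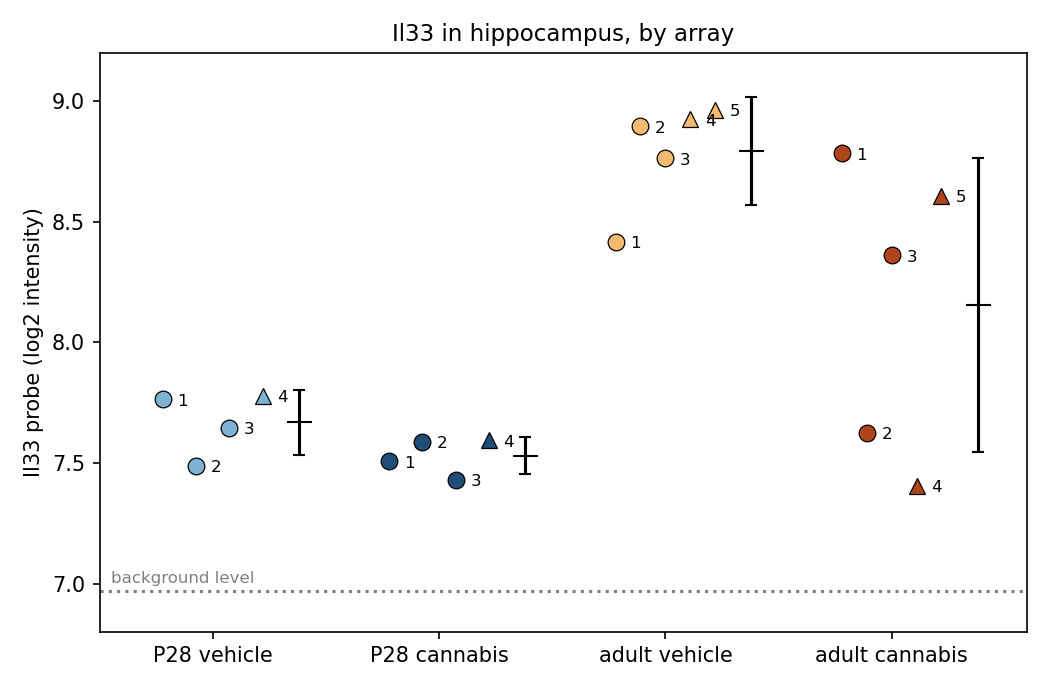
Il33 by array. The vertical axis is the log2 intensity of the Il33 probe and the horizontal axis the 4 groups. Points are arrays with their replicate numbers, circles for replicates 1 to 3 and triangles for 4 and 5, bars are the group mean ± SD, and the dotted line is the background level of 6.97. All 5 adult vehicle arrays sit above the 8 P28 arrays, and adult cannabis arrays 2 and 4 sit among or below the P28 arrays.

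The group means in order were 8.79 ± 0.22 (SD, n = 5) in adult vehicle mice, 8.16 ± 0.61 (SD, n = 5) in adult cannabis mice, 7.67 ± 0.13 (SD, n = 4) in P28 vehicle mice and 7.53 ± 0.08 (SD, n = 4) in P28 cannabis mice. Only the step from adult vehicle to each P28 group was free of overlap among these means, since the adult cannabis range crossed those of all the other groups and the P28 groups overlapped each other. Without arrays 2 and 4 the adult cannabis mean was 8.58 ± 0.21 (SD, n = 3), and this group then cleared both P28 groups.

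The age difference asks what changed in hippocampus between the end of feeding and adulthood. In vehicle mice Il33 was higher in adults by 1.12 ± 0.21 (SE), or 2.18-fold, the 5th largest rise and the 20th largest difference of either sign among 18574 probes. The error is pooled over the 4 groups, and for this difference it was 0.11 without adult cannabis arrays 2 and 4. Across all probes 47 (0.253%) were called higher in adults and 147 (0.791%) lower, in all 194 (1.04%), with 2490 (13.4%) at an unadjusted p under 0.05. In cannabis mice the Il33 difference was 0.63 ± 0.21 (SE), or 1.54-fold, the 12th largest rise, with 4 of 5 adult arrays above every P28 cannabis array and 1 below them all. Without adult cannabis arrays 2 and 4 it was 1.05 ± 0.12 (SE), or 2.08-fold, the 4th largest rise, with a gap of 0.77 between the groups. In cannabis mice 0 probes (0.0%) were called higher and 5 (0.0269%) lower, with 1966 (10.6%) at an unadjusted p under 0.05. Without the 2 arrays 48 (0.258%) were higher and 155 (0.834%) lower.

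The feeding difference asks what the extract left in hippocampus at once and after weeks. At P28 Il33 was lower in cannabis than in vehicle mice by a log2 difference of -0.14 ± 0.22 (SE), with 1 of 4 cannabis arrays below every vehicle array. The error is pooled over the 4 groups, and without adult cannabis arrays 2 and 4 the P28 difference was -0.14 ± 0.11 (SE). In adults the difference was -0.64 ± 0.20 (SE), the 8th largest fall by size, and 3 of 5 cannabis arrays lay below every vehicle array. Without adult cannabis arrays 2 and 4 it was -0.21 ± 0.12 (SE), with 1 of 3 arrays below every vehicle array, and it ranked 322nd among the falls. The difference between the 2 ages in the feeding difference was -0.50 ± 0.30 (SE) over all arrays and -0.069 ± 0.16 (SE) without these 2. The P28 difference and the adult difference in limma each called 0 probes (0.0%), with 339 (1.83%) and 662 (3.56%) at an unadjusted p under 0.05, and the difference between them also called 0 (0.0%), with 550 (2.96%). The adult differences by age and by feeding share the adult cannabis arrays, so their Il33 values are not independent.

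At P28 the choroid plexus level, the mean of 11 marker genes of the tissue that makes cerebrospinal fluid, was higher in most cannabis arrays. It was 7.52, 8.91, 8.41 and 9.12 in the cannabis arrays and 7.40, 7.35, 8.32 and 7.13 in the vehicle arrays, so 3 of 4 cannabis arrays lay above every vehicle array. The P28 cannabis arrays also enter the age difference in cannabis mice and the difference between ages in the feeding difference. In cannabis mice all 11 markers were lower in adults, with a median of -0.91, against a median of -0.19 in vehicle mice. The part of this in these Il33 differences and in the P28 difference was not tested. In adults the level was 7.10 to 7.54 in vehicle and 7.24 to 7.43 in cannabis arrays.

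The Il33 differences were also read within replicates 1 to 3 and within replicates 4 and 5, a division that no label explains. In vehicle mice the age difference was 1.06 in replicates 1 to 3 and 1.17 in replicates 4 and 5, and in cannabis mice 0.75 and 0.41. The adult feeding difference was -0.44 and -0.94, and the P28 one -0.12 and -0.18. Replicates 4 and 5 held only 1 P28 array per feeding group. Adult cannabis array 2 is in replicates 1 to 3 and array 4 in replicates 4 and 5. Both adult feeding values and both cannabis age values therefore rest in part on these arrays, and the parts were not read without them. In the 3 sets of 6 arrays in order of deposit, the age difference in vehicle mice was 0.79, 1.18 and 1.17. The adult feeding difference in these sets was 0.37 (1 array against 1), -0.84 and -0.94. Adult cannabis array 2 was in the second set and array 4 in the third, which holds the same arrays as replicates 4 and 5. The first set held adult cannabis array 1 at 8.78 and adult vehicle array 1, the lowest of its group, at 8.42. Adult cannabis arrays 3 and 5, at 8.36 and 8.61, lay below the adult vehicle arrays of their own sets (8.76 to 8.96).

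**Figure D2:**
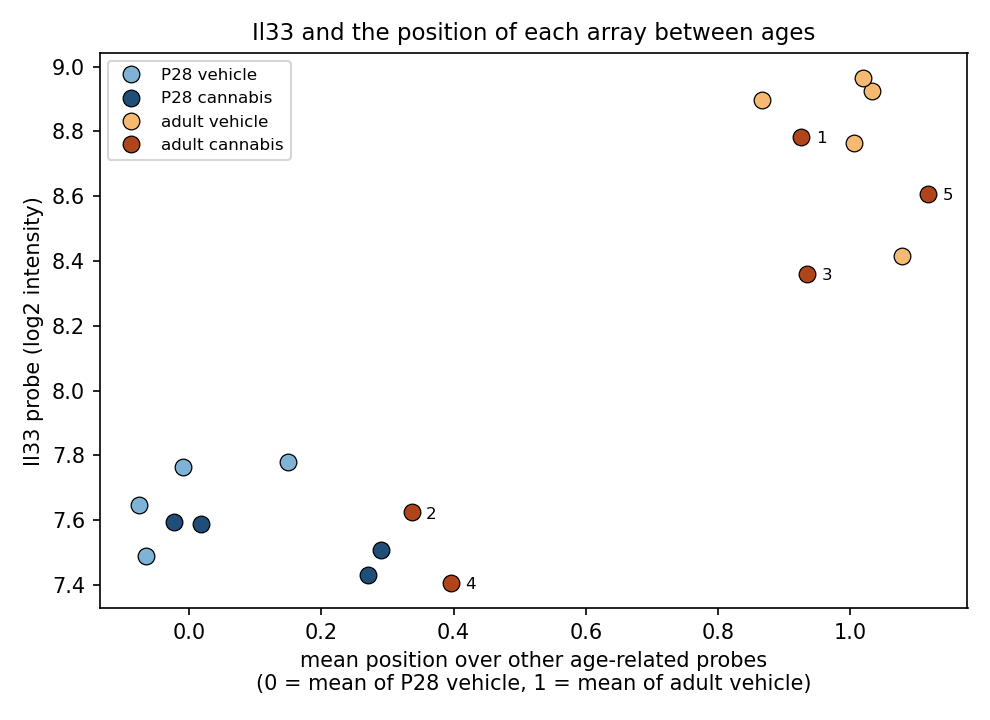
Il33 and the age position of each array. The horizontal axis is the mean position over 375 other age-related probes, with 0 at the P28 vehicle mean and 1 at the adult vehicle mean, and the vertical axis is the log2 intensity of Il33. Points are the 18 arrays coloured by group, with the adult cannabis arrays numbered. Adult cannabis arrays 2 and 4, at 0.34 and 0.40, lie nearest the P28 arrays and the other 3 lie with the adult vehicle arrays.

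On the same scale drawn for Il33 alone, adult cannabis arrays 2 and 4 were at -0.04 and -0.23, below their position over the other age-related probes. Adult cannabis arrays 1, 3 and 5 were at 0.99, 0.62 and 0.84, with arrays 3 and 5 also below their position and array 1 above it. The P28 cannabis arrays were at -0.14, -0.07, -0.21 and -0.07 for Il33, against 0.29, 0.02, 0.27 and -0.02 over the other probes. A lower Il33 position was thus not particular to arrays 2 and 4, and it sets 1 probe against a mean of 375. The vehicle arrays define the scale and so carry no information on it.

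On the receptor side of the pathway 1 gene could be read and it did not pass the test. Il1rap, the accessory chain of the receptor, was 7.29, 7.30, 7.41 and 7.19 in P28 vehicle arrays and 7.43, 7.28, 7.35, 7.35 and 7.19 in adult vehicle arrays, which overlapped. Its age difference was 0.02 ± 0.08 (SE, adjusted p = 0.943 in limma), and its 4 other probes above background differed by -0.09 to 0.15. In cannabis mice the age difference of Il1rap was -0.02 ± 0.08 (SE, adjusted p = 0.953). The feeding difference of Il1rap was 0.10 ± 0.08 (SE) at P28 and 0.05 ± 0.07 (SE) in adults. Il1rl1, which encodes ST2, had no named probe, and Sigirr, an inhibitor of the receptor, exceeded background in 1 of 18 arrays.

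Of 25 listed adaptors and kinases that carry the signal, 20 were above background and 0 were called with age in vehicle mice, with a median difference of 0.02 against -0.0005 over all 10572 genes. For genes read by 1 probe each, 28 (0.265%) were called higher and 97 (0.918%) lower in that comparison. Myd88, the adaptor that binds the receptor, differed by 0.21 ± 0.09 (SE, adjusted p = 0.318). Irak2, a kinase of the receptor complex, differed by 0.24 ± 0.11 (SE, adjusted p = 0.354), and Irak1, another kinase of it, by -0.13 ± 0.06 (SE, adjusted p = 0.399), with 1 of its 2 other probes of the opposite sign. In cannabis mice 0 of the 20 were called, with a median of -0.02, against 0 genes (0.0%) higher and 2 (0.0189%) lower over all genes.

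Of 17 other IL-1 family ligands and receptors, all on the array, 5 were above background and 0 were called with age in either feeding group. Over all genes 0.265% were called higher and 0.918% lower in vehicle mice, and 0.0% and 0.0189% in cannabis mice. A count of 0 among 5 is near these shares. Il18, a cytokine matured by caspase-1, was 8.67, 8.47, 8.68 and 8.50 in P28 vehicle arrays and 8.63, 8.41, 8.56, 8.53 and 8.44 in adult vehicle arrays. The difference was -0.06 ± 0.11 (SE, adjusted p = 0.884), and 1 adult cannabis array, array 3, was the lowest of all for Il18 at 7.90. Il18bp, which binds and blocks IL-18, differed with age in vehicle mice by 0.02, as did Il18rap, a chain of the IL-18 receptor. Il1rl2, the IL-36 receptor, differed by -0.02 and Il1rapl1, a synaptic member of the family, by 0.03. Il1a, Il1b and Il1rn, the ligands and the antagonist of the IL-1 receptor, were not above background in enough arrays to be tested.

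Other alarmins were mostly not above background. Of 8 listed, 2 were above background and 0 were called: S100b, a calcium-binding protein of astrocytes, differed by 0.11 ± 0.10 (SE, adjusted p = 0.731) and Hmgn1, a nucleosome-binding protein, by -0.09 ± 0.08 (SE, adjusted p = 0.735). Of 11 listed proteases that cut IL-33, 3 were above background and 0 were called, with Casp1 (caspase-1) at -0.01 ± 0.08 (SE), Capn1 at 0.08 ± 0.07 (SE) and Capn2 at -0.13 ± 0.07 (SE), the last 2 being calpains. Of 16 cytokines and chemokines known to be induced through IL-33, 4 were above background and 0 were called, among them Cxcl1, a neutrophil chemokine, at 0.19 ± 0.12 (SE, adjusted p = 0.571). Cxcl1 read 7.58 in adult vehicle array 5, but 6.70 to 6.98 in the other adult vehicle arrays and 6.73 to 6.99 in P28 vehicle arrays. Those values lie about the background level of 6.97. Il5, Il6, Tnf and Ccl2 were not above background. Over all genes 0.265% were called higher and 0.918% lower in adult vehicle mice, so 0 calls in lists this small are near that share.

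Of 15 listed matrix proteases and phagocytic genes of microglia, 12 were above background. In adult vehicle mice 0 were called higher and 1 lower, against 0.265% and 0.918% of all genes. The gene was Adamts4, a protease of matrix proteoglycans that oligodendrocytes also make. It read 8.07, 8.20, 8.18 and 7.75 in P28 vehicle arrays and 7.11, 7.45, 7.52, 7.39 and 7.31 in adult vehicle arrays, which did not overlap. It fell by 0.70 on the log2 scale (SE 0.14, adjusted p = 0.0248), a call that was lost without any one of P28 vehicle arrays 1, 2 and 3 and adult vehicle arrays 1, 4 and 5. Mmp2, another matrix protease, differed by -0.23 ± 0.06 (SE, adjusted p = 0.0889). Trem2 and Tyrobp, the receptor and adaptor of microglial phagocytosis, differed by 0.01 and 0.08.

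**Figure D3:**
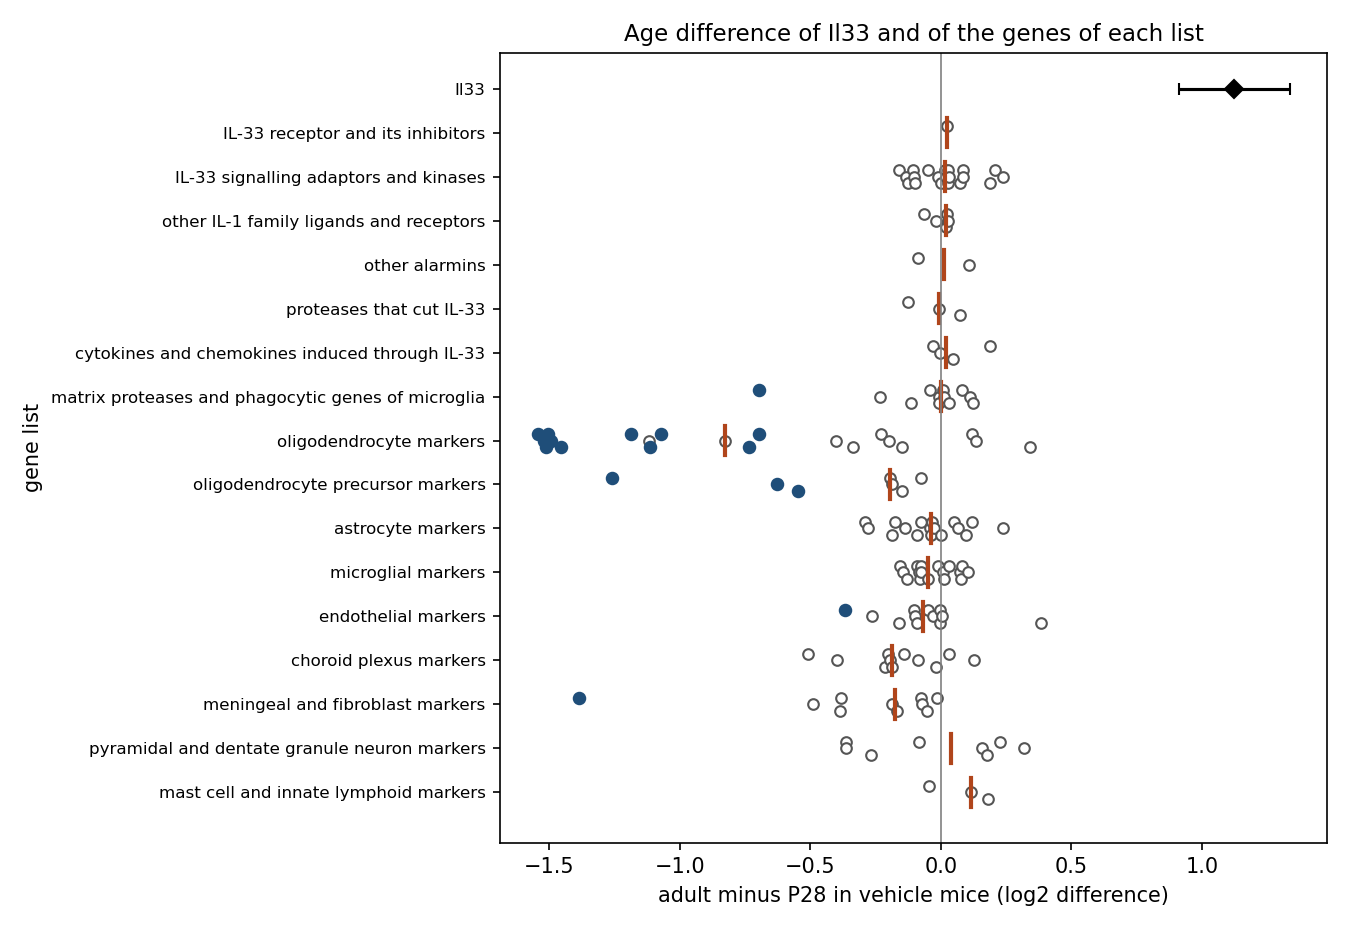
Age differences by gene list. The horizontal axis is the adult minus P28 log2 difference in vehicle mice and the vertical axis lists Il33 (diamond, with its SE) and 16 gene groups. Each circle is a gene above background, filled where it passed an adjusted p of 0.05 in limma, and red lines mark medians. Il33 at 1.12 lies to the right of all the list genes, and the filled circles lie to the left, most of them oligodendrocyte markers.

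Among markers of the glial cells known to make IL-33, 0 were called in the direction of Il33. Over all genes only 28 (0.265%) were called higher and 97 (0.918%) lower in adult vehicle mice, so a count of 0 higher is near that share. Of 26 oligodendrocyte markers on the array 21 were above background, and in adult vehicle mice 0 were called higher and 11 lower, with 18 of 21 differences negative and a median of -0.83. The lower genes included Mag, Mog and Cnp, proteins of myelin and the cells that make it, and Mbp and Cldn11, structural proteins of the sheath. They also included Ugt8a and Fa2h, enzymes of myelin lipids, and Olig1, a transcription factor of the lineage. Of the 4 other Mbp probes, 1 had the opposite sign.

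Mog, a protein of the outer myelin surface, was 9.47, 9.63, 9.94 and 9.15 in P28 vehicle arrays. It was 7.82, 8.59, 8.28, 7.91 and 7.87 in adult vehicle arrays, all below the young ones. The difference of Mog was -1.45 ± 0.22 (SE), that of Mag -1.54 ± 0.23 (SE) and that of Tspan2, a tetraspanin of oligodendrocytes, -1.50 ± 0.23 (SE), each with an adjusted p = 0.00644 in limma. These 3 calls held without each array in turn. Car2, Aspa and Evi2a, the 3 markers with a positive difference, were at 0.34, 0.13 and 0.12 and did not pass.

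In cannabis mice 0 of the 21 oligodendrocyte markers were called and the median age difference was -0.54, with Mog at -1.28 ± 0.22 (SE, adjusted p = 0.0555). Without adult cannabis arrays 2 and 4, 9 were lower and the median was -0.79, against 23 genes (0.218%) higher and 109 (1.03%) lower over all genes. In those 2 arrays Mog was 8.86 and 8.55, below the P28 range of 9.15 to 10.01. The mean oligodendrocyte marker level was 10.18 in each, above the other 8 adult arrays at 9.45 to 10.10 and below the P28 arrays at 10.23 to 11.07.

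Of 8 oligodendrocyte precursor markers 7 were above background, with 0 called higher and 3 lower in adult vehicle mice, against 0.265% and 0.918% of all genes. Gpr17, a receptor of cells committed to differentiate, differed by -1.26 ± 0.26 (SE, adjusted p = 0.0285), Bmp4, a signal made by such cells, by -0.63 ± 0.11 (SE, adjusted p = 0.016) and Pdgfra, the receptor that defines precursors, by -0.55 ± 0.13 (SE, adjusted p = 0.0432). The Bmp4 call was lost without P28 vehicle array 2 or 3. The Gpr17 and Pdgfra calls were lost without any one of P28 vehicle arrays 1 to 3 and adult vehicle arrays 1, 3, 4 and 5, and that of Pdgfra also without P28 cannabis array 1, 2 or 4. In cannabis mice 0 of the 7 were called, and 2 were lower without adult cannabis arrays 2 and 4. In those arrays Gpr17 was 10.16 and 10.43, within the P28 range, while the other adults lay at 8.91 to 9.49.

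Astrocyte markers, of which 17 of 18 were above background, gave 0 calls in adult vehicle mice and a median of -0.04. Over all genes 0.265% were called higher and 0.918% lower in this comparison. Their mean level was 10.06 ± 0.07 (SD, n = 4) in P28 vehicle, 10.02 ± 0.06 (SD, n = 4) in P28 cannabis, 10.01 ± 0.08 (SD, n = 5) in adult vehicle and 10.03 ± 0.09 (SD, n = 5) in adult cannabis mice. Sox9, an astrocyte transcription factor, had a difference of 0.24 ± 0.11 (SE, adjusted p = 0.374) and Gfap, the astrocyte filament protein, -0.29 ± 0.15 (SE, adjusted p = 0.417). The 17 microglial markers above background gave 0 calls and a median of -0.05, with a mean level of 8.10 ± 0.04 (SD, n = 4) in P28 vehicle, 7.99 ± 0.03 (SD, n = 4) in P28 cannabis, 8.07 ± 0.10 (SD, n = 5) in adult vehicle and 8.10 ± 0.07 (SD, n = 5) in adult cannabis mice. At P28 every cannabis array (7.96 to 8.04) lay below every vehicle array (8.05 to 8.14) in this level, with 14 of 17 feeding differences negative and 0 called, and the part of this in the P28 difference of Il33 was not tested.

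Other tissues gave few calls in adult vehicle mice. Of 12 endothelial markers above background 1 was lower, the glucose transporter Slc2a1, which fell by 0.37 (SE 0.08, adjusted p = 0.0365), and of 10 such meningeal and fibroblast markers 1 was lower, the growth factor Igf2, which fell by 1.39 (SE 0.24, adjusted p = 0.0102). The Igf2 call was lost without P28 vehicle array 2, and the Slc2a1 call without any one of P28 vehicle arrays 1 to 3 and adult vehicle arrays 1, 3, 4 and 5. Choroid plexus markers (11) and neuron markers (8) gave 0 calls. Of 10 mast cell and innate lymphoid markers, cells that answer IL-33 elsewhere in the body, 3 were above background and 0 were called, and Cpa3, Tpsab1, Cma1 and Mcpt4, enzymes of mast cell granules, were below it. In all, 17 of 150 list genes were called in adult vehicle mice, against 0.265% of all genes called higher and 0.918% lower. The list count was 4 to 9 without any one of P28 vehicle arrays 1 to 3 and adult vehicle arrays 1, 3, 4 and 5. In both feeding comparisons 0 list genes were called, and 5 at P28 without P28 cannabis array 1.

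Within an age, Il33 and the marker levels were compared as deviations from group means, in 6 relations. The coefficients are a description with no p, since they rest on the Il33 values it was selected on, and arrays of a group share feeding and age. With oligodendrocyte markers Pearson's r was -0.02 at P28 (rho -0.12, n = 8) and -0.32 in adults (rho -0.43, n = 10). The adult r was 0.57 without adult cannabis arrays 2 and 4 and -0.62 without the 2 arrays farthest from the median level, so its sign rests on a few arrays. The P28 r was -0.36 without its 2 farthest arrays, and within replicates 1 to 3 the values were 0.12 at P28 and 0.06 in adults. With microglial markers r was 0.60 at P28 (rho 0.50, n = 8) and -0.53 in adults (rho -0.58, n = 10). Without the 2 farthest arrays these were 0.54 and -0.45, and within replicates 1 to 3 they were 0.41 and -0.45. The adult r was -0.39 without adult cannabis arrays 2 and 4. With astrocyte markers r was 0.19 at P28 (rho 0.21, n = 8) and -0.31 in adults (rho -0.37, n = 10), and these were 0.16 and 0.13 without the 2 farthest arrays. Within replicates 1 to 3 the astrocyte values were 0.50 and -0.69, and the adult one was -0.59 without adult cannabis arrays 2 and 4.

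The genes whose pattern was most like Il33 were taken from 10571 other genes by Pearson's r over the 18 arrays, which share the 4 groups, so r mostly reads the group differences. The 10 highest were Prr13 (0.89), Faim2 (0.88), Cbx7 (0.87), C4b (0.86), Asb16 (0.86), Ddo (0.84), Gpbp1 (0.84), Abca8a (0.84), Nrsn2 (0.84) and Luzp2 (0.82). Within the 8 P28 arrays their r with Il33 ran only from -0.47 to 0.35. Cbx7, a Polycomb protein, had the highest r within the 10 adult arrays, 0.94. Other probes of Ddo, Gpbp1 and Nrsn2 were less alike, with r of 0.21 to 0.60.

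C4b, a complement component, was 7.90, 7.63, 7.65 and 7.71 in P28 vehicle arrays and 8.26, 8.38, 8.27, 8.15 and 8.11 in adult vehicle arrays. In adult cannabis arrays it was 8.11, 7.81, 8.35, 7.62 and 8.19. As with Il33, arrays 2 and 4 lay within or below the P28 levels and the other 3 among the adult vehicle levels. Genes chosen by r over all 18 arrays tend to share the place of these 2 arrays with Il33 through that choice. Without the 2 arrays r was 0.82 to 0.89 for the 10 highest genes and -0.94 to -0.90 for the 5 lowest. Faim2, a neuronal inhibitor of Fas-induced death, was 10.10 and 9.94 in arrays 2 and 4, against 9.92 to 10.17 at P28 and 10.24 to 10.51 in the other adults.

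The 5 lowest were Dpysl5 (-0.95), Igfbpl1 (-0.91), Zdhhc12 (-0.91), Tubb2b (-0.91) and Mkrn3 (-0.90), and their r within the P28 arrays ran from -0.37 to 0.27. Dpysl5, a collapsin response mediator of growing axons, was 8.09 to 8.32 in the 8 P28 arrays and 7.50 to 7.81 in the adults other than cannabis arrays 2 and 4, which read 8.27 and 8.32. Igfbpl1, known from immature neurons, was 7.61 in both of those arrays, within the P28 range of 7.30 to 7.78 and above the other adults at 6.78 to 6.93. The 2 other Igfbpl1 probes had r of -0.95 and -0.90, while the other Zdhhc12 probe had -0.05. Tubb2b, a tubulin of developing neurons, was 13.33 and 13.19 in the 2 arrays, within the P28 range of 13.06 to 13.34.

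**Figure D4:**
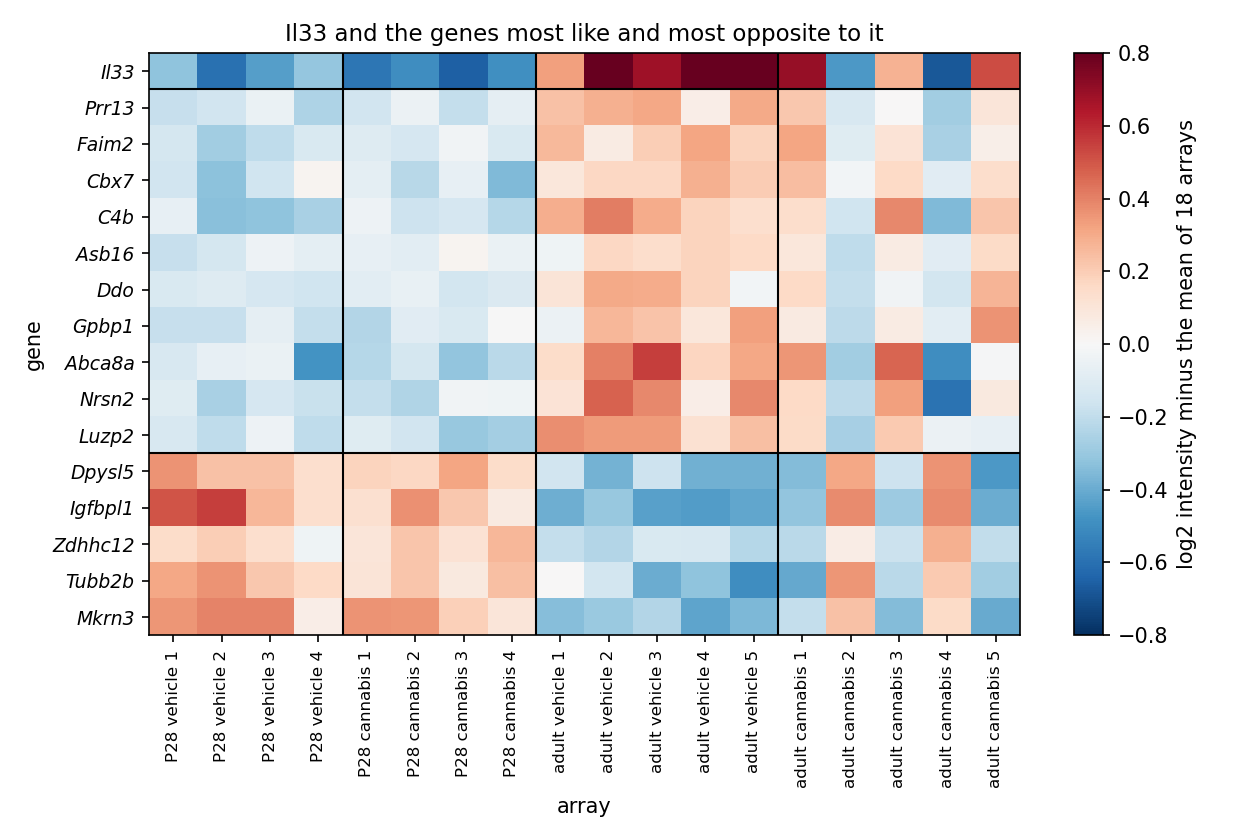
Il33 and the genes most like and most opposite to it. Rows are genes, Il33 first, then the 10 with the highest and the 5 with the lowest Pearson r, and columns are the 18 arrays by group. Colour is the log2 intensity minus the gene's mean of the 18 arrays, and colours stop at the ends of the bar, which some Il33 values pass. Columns of adult cannabis 2 and 4 carry the colours of the P28 arrays in most rows.

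After group and the division of replicates 1 to 3 against 4 and 5 were removed, the 5 genes most like Il33 were Cul3 (0.84), Rcan2 (0.84), Abca8a (0.81), Ran (0.81) and Rdh12 (0.81). Il33 spread most within the adult cannabis group (SD 0.61, against 0.08 to 0.22 in the other groups), so these r may rest largely on adult cannabis arrays 2 and 4. They were not computed without those 2 arrays. Abca8a, a membrane transporter, was the one gene both among these 5 and among the 10 highest over the 18 arrays. Of these genes Rcan2, an inhibitor of calcineurin, was 9.66 and 9.52 in adult cannabis arrays 2 and 4, below all P28 arrays (9.71 to 10.15). Over the 18 arrays without this removal Cul3, a ubiquitin ligase scaffold, had an r of only 0.08 with Il33, and its other probe had -0.37.

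The nearest genes beside Il33 on chromosome 19 did not pass the test. On the side before it, Ranbp6, an importin-like protein, differed with age in vehicle mice by 0.06 ± 0.08 (SE, adjusted p = 0.83) and 9930021J03Rik by 0.04 ± 0.06 (SE, adjusted p = 0.852). On the side after it, Trpd52l3 had 2 probes, both below background, and Uhrf2, a ubiquitin ligase that reads modified chromatin, differed by 0.20 ± 0.07 (SE, adjusted p = 0.198). In cannabis mice Uhrf2 differed with age by 0.17 ± 0.07 (SE, adjusted p = 0.423).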

How the data were processed

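Hippocampal RNA of 18 samples was labelled as biotin cRNA and read on Illumina bead arrays, per the labels' protocols. The values are the log2 intensities of the authors' deposited value table, with a median of 6.86 in every column and a range of 6.50 to 15.08, so they had been normalized between arrays before deposit. Per the submitters' processing notes the software was Partek, and no setting or step of it is stated. The 72 sample columns of the other tables carry slide positions that no sample label repeats, so they were not used and slides could not be modelled. Groups came from the sample titles.

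Background was set 3 SD above the peak of unexpressed probes (6.77, SD 0.0684), and probes over it in 4 arrays or more were kept. Symbols came from the platform annotation, with 10 updated through the RefSeq gene table (GRCm38.p6): 34885 probes had 1 symbol, 18 had several and 10378 were unnamed. A model with 1 mean per group was fitted with limma 3.58.1 under R 4.3.3, with moderated 2-sided tests (residual df 14, prior df 3.87) and Benjamini-Hochberg adjustment. The fit was also run on simulated data with independent noise of the same spread in every group. That setting held no arrays like adult cannabis arrays 2 and 4, so it does not show how the fit behaves with them. A gene was read by its probe with the highest mean. Promoter windows came from RefSeq.

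Il33 and the 16 gene lists (224 genes, 150 above background) were chosen with earlier results of these data known. Named genes are Il33, the receptor and IL-1 family members above background, up to 3 members of each other list with the smallest p in the vehicle age comparison, the genes most and least like Il33 and its neighbours. Other list members named, and all arrays singled out, were chosen after their values were seen.

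The correlation of deviations of same-numbered arrays ran from 0.20 to 0.53 between P28 vehicle and P28 cannabis arrays. All were above a cut of 0.1, so same-numbered P28 arrays were treated as pairs here without support from a label. Arrays of different numbers were not compared, so these values cannot show that the number marks a pair. Whether a shared technical step lies behind the correlations was not tested. The main fit did not use these pairs, and a fit with the replicate number as a block is given below. For Il33 the cannabis array was the lower in pairs 1, 3 and 4 and the higher in pair 2. The correlation ran from -0.15 to 0.50 between adult groups, from 0.07 to 0.57 between ages in vehicle mice and from -0.08 to 0.64 in cannabis mice. Each of these ranges reached below 0.1, so there the numbers were taken only to name samples. The permutation tests planned for Il33 against marker levels are not reported, because Il33 was selected on these values. Alternatives were array weights, a trend and robust prior, no filter, the groups compared alone, blocks for replicate number, for the division of replicates and for sets in order of deposit, replicates 1 to 3 alone, normexp background correction (offset 16), the mean of a gene's probes, and leaving out each array. Leaving out adult cannabis arrays 2 and 4 together was added after seeing the data.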

Additional observations from a re-analysis of the deposited data

Results flagged for a closer look

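For Il33, 13 other genes and 4 marker levels described by array, 72 groups of 4 or 5 arrays were checked for an array far from the others. In 2 of the 72 groups an array stood out, which is not above the share of about 1 in 20 that chance gives. Prr13, the gene most like Il33, was lowest in adult vehicle array 4 at 11.03, with the nearest array of the group at 11.22. This gap was 0.726 of the range of the group, above Dixon's critical value of 0.71 for 5 arrays. Gpr17, the receptor of differentiating oligodendrocyte precursors, was lowest in adult vehicle array 2 at 8.91, with the nearest array at 9.37 and a gap of 0.791 of the range. No Il33 value stood out in this way, but the check looks for 1 array far from all the others. Adult cannabis arrays 2 and 4, at 7.62 and 7.41 for Il33, lie near each other, so it could not flag either.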

How the results depend on the processing

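The differences of Il33 kept their sign in every alternative fit listed here, while the adult feeding difference turned to 0.37 when the first set in order of deposit was read by itself (1 array against 1). The vehicle age difference of 1.12 became 1.56 with normexp correction and ran from 1.06 to 1.22 without each array in turn. Without adult cannabis arrays 2 and 4 the cannabis age difference was 1.05, the adult feeding difference -0.21 and the difference between ages in the feeding difference -0.069. Without each array in turn these 3 ran from 0.47 to 0.81, from -0.79 to -0.45 and from -0.65 to -0.31, and the P28 feeding difference from -0.20 to -0.10. With the replicate number as a block the Il33 differences were 1.05 (age, vehicle), 0.55 (age, cannabis), -0.14 (feeding, P28), -0.64 (feeding, adult) and -0.50 (between ages). At P28, where arrays were taken as pairs, the block left the count of called probes at 0.

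Counts of called probes moved far more. With age in vehicle mice (194) the count was 99 with no filter, 4 in replicates 1 to 3 alone, 830 with array weights, 376 with only the groups compared, 353 with the replicate block, 417 with the division of replicates as a block, 549 with sets in order of deposit as a block and 377 without adult cannabis arrays 2 and 4. It ran from 28 to 316 without each array, lowest without P28 vehicle array 3 and highest without adult vehicle array 2. With age in cannabis mice (5) it was 0 with no filter, with array weights, with only the groups compared and in replicates 1 to 3 alone, 14 with the trend and robust prior, 51 with the replicate block, 8 with the division block, 137 with the set block, 15 with normexp and 203 without adult cannabis arrays 2 and 4. It ran from 0 to 102 without each array, highest without P28 cannabis array 1. The P28 feeding count ran from 0 to 11, at 11 without P28 cannabis array 1, and the adult feeding and between-age counts stayed at 0 in these fits.

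Among list genes, the vehicle age count of 17 was 7 with no filter, 26 with array weights, 0 in replicates 1 to 3 alone and 4 to 19 without each array. The cannabis age count of 0 was 2 with the trend and robust prior, with the division block and with normexp, 7 with the replicate block, 15 with the set block, 13 without adult cannabis arrays 2 and 4 and 0 to 17 without each array. The P28 feeding count ran from 0 to 5. Single list genes were followed under the alternatives only for Adamts4, Bmp4, Gpr17, Igf2, Mag, Mog, Pdgfra, Slc2a1 and Tspan2, and only in the age comparisons. Of these values 433 kept their side of the threshold, 24 passed it newly and 47 no longer passed it, with no change of sign. Arrays give signal over background, and Il33 at 7.41 to 8.96 lies close enough to the background level of 6.97 for its differences to be compressed.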
